A study of Mus musculus with 16 samples.

Results

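The genes described here are 9 genes of the major histocompatibility complex (MHC) class II presentation pathway, measured by RNA-seq in the seminal vesicle (SV) of 5-week-old male mice. They were chosen by name from the 31274 genes of the deposited table, and all 9 were found in it. They are *H2-Aa* and *H2-Ab1* (the α and β chains of the class II molecule I-A), *H2-Eb1* (the β chain of I-E), *Cd74* (the invariant chain), *H2-DMa* and *H2-DMb1* (the chains of H2-M, the mouse form of DM), *H2-Oa* and *H2-Ob* (the chains of H2-O, the mouse form of DO) and *Ciita* (the class II transactivator). The 16 samples fell into 4 groups of 4. WT-veh and WT-DES were C57BL/6 mice with an intact *Esr1*, the gene of oestrogen receptor α (ERα), and αERKO-veh and αERKO-DES were C57BL/6 mice in which ERα is absent from the whole body. The DES groups had received diethylstilbestrol (DES), a synthetic oestrogen, under the skin in corn oil from day 1 to day 5 of life, 2 µg a day for each pup, and the veh groups had received corn oil alone. WT pups were born to purchased pregnant females and αERKO pups to heterozygous parents bred for the study, so genotype and origin cannot be told apart. The extraction methods describe individual mice for the other groups and pools of mice for WT-DES, 3 in number, whereas the table holds 4 WT-DES samples. The labels do not say which of the 4 are pools, so the p-values measure only the spread between these samples.

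Class II molecules display peptides from ingested and endosomal proteins to CD4 T cells. The α and β chains assemble in the endoplasmic reticulum with the invariant chain, which blocks the groove and directs the complex to endosomes, where proteases trim it to a fragment called CLIP. DM exchanges CLIP for other peptides, and DO binds DM and restrains it. Transcription of most of these genes depends on the transactivator CIITA, which binds no DNA itself but is held by an assembly of RFX, NF-Y and CREB proteins on conserved X and Y boxes before each gene. In the absence of inflammation the pathway is known mainly from dendritic cells, B cells and macrophages, with DO most abundant in B cells, while interferon γ can switch on *Ciita* in many other cell types, epithelium included. C57BL/6 mice make no I-E molecule, because their I-E α chain gene is disrupted, although *H2-Eb1* is transcribed.

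On GRCm38 (GENCODE M21), 7 of the 9 genes lie together on chromosome 17: *H2-Oa* at chr17:34092340-34095234, *H2-DMa* at chr17:34119541-34139101, *H2-DMb1* at chr17:34153072-34160230, *H2-Ob* at chr17:34238903-34254414, *H2-Ab1* at chr17:34257689-34269419, *H2-Aa* at chr17:34282744-34287823 and *H2-Eb1* at chr17:34305867-34316674. *H2-Aa* is on the minus strand and the other 6 are on the plus strand. *Ciita* is on the plus strand at chr16:10480059-10528418.

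RefSeq promoter windows on GRCm38.p6, which run from 250 bases before to 50 bases after an annotated start, matched 6 of the 9 genes. *H2-Ab1*, *Cd74* and *Ciita* had none. Both strands were searched for the letters GNAAC, a core of the X box, followed 20 to 35 bases later, from start to start, by TGATTGG, the letters of the Y box. These letters were chosen after the windows had been read. The arrangement was found in 5 of the 6 genes and in 154 of all 32851 windows (0.469%), and TGATTGG alone in 2568 windows (7.82%). The start of GNAAC lay 31 bases before that of TGATTGG in *H2-Oa*, *H2-DMb1* and *H2-Aa*, 30 bases in *H2-Eb1* and 28 bases in *H2-Ob*. The 2 windows of *H2-DMa* held neither arrangement nor TGATTGG. A match is a description of letters and not evidence of binding. In GENCODE M21, whose start of *H2-DMb1* lies farther upstream, all 61 bases of the *H2-DMb1* stretch are exonic, so it is not shown, and 9 bases of that of *H2-Oa* are exonic. The stretches below are shown because class II chain genes and DO chain genes share this layout. They are written 5′ to 3′ on the strand of the gene with the X core and the Y box in capitals, and lie at chr17:34287859-34287919 (minus strand), chr17:34305761-34305820, chr17:34092288-34092348 and chr17:34238803-34238860 (plus strand) in the order given.
H2-Aa: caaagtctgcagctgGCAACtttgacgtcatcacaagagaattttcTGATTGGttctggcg
H2-Eb1: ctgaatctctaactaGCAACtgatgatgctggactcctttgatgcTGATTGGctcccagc
H2-Oa: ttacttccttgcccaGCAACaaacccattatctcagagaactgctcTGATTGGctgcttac
H2-Ob: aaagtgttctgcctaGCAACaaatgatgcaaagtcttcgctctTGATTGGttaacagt
The X core letters were GCAAC in these 4 and GTAAC in *H2-DMb1*.

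Expression is given as FPKM, a count of fragments scaled to gene length and to library size, so levels of different genes can be set side by side. It gives no counts, and sequencing depth is therefore unknown. *Esr1* was at 2.81 to 19.6 FPKM in the 8 WT samples and at 0.91 to 1.75 in the αERKO samples, below every WT value. The 7 SV secretion markers summed to 27578 to 57795 FPKM in the samples of the other 3 groups and to 2372 to 7708 in WT-DES. WT-DES sample 1 differed from the other WT-DES samples in its smooth muscle markers, which summed to 2938 FPKM against 735 to 1119, near the 2580 to 3136 of WT-veh. All log2 changes below are differences of log2(FPKM + 1) from limma, which understates the change of genes at low FPKM. A gene was called where the adjusted p was at most 0.05 over the 15988 genes tested, the ratio of mean FPKM was at least 1.5 and the mean FPKM was above 1 in one of the groups compared.

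The class II chains were the most abundant of the 9 after *Cd74*. *H2-Aa* was at 121, 67.3, 71.2 and 80.2 FPKM in the 4 WT-veh samples and at 266, 552, 574 and 375 in WT-DES. The same gene was at 62.5, 66.6, 52.0 and 76.4 FPKM in αERKO-veh and at 85.0, 56.8, 77.8 and 47.6 in αERKO-DES. The lowest WT-DES sample was thus above the highest sample of every other group, and the αERKO groups overlapped each other and WT-veh. The mean of WT-DES was 5.20 times that of WT-veh, and the log2 change was 2.34 (standard error 0.25, limma adjusted p = 9.96e-07). Because these are bulk tissue samples, more cells that express a gene and more RNA per cell cannot be told apart.

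*H2-Ab1*, whose product pairs with that of *H2-Aa*, was at 110, 64.5, 61.1 and 72.5 FPKM in WT-veh and at 253, 504, 502 and 321 in WT-DES. In αERKO-veh it was at 48.2, 56.0, 43.7 and 61.4 FPKM, and in αERKO-DES at 71.1, 45.1, 61.5 and 39.1. Again every WT-DES sample was the higher, by 5.13-fold in the means (log2 change 2.32, standard error 0.25, limma adjusted p = 8.04e-07). The ratio of *H2-Aa* to *H2-Ab1* was 1.04 to 1.17 in the WT-veh samples and 1.05 to 1.17 in WT-DES, which overlap. With 1.19 to 1.30 in αERKO-veh, and with 1.19 to 1.27 in αERKO-DES, it was above every WT sample in both.

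*H2-Eb1* was at 68.0, 41.1, 41.4 and 43.7 FPKM in WT-veh and at 143, 302, 318 and 199 in WT-DES. The αERKO-veh samples held 33.1, 36.0, 29.1 and 45.7 FPKM and the αERKO-DES samples 48.1, 29.8, 40.4 and 29.1. The change in WT-DES was 4.95-fold in the means (log2 change 2.25, standard error 0.25, limma adjusted p = 1.30e-06), without overlap. Its α chain partner did not accompany it, since *H2-Ea-ps*, as the disrupted α chain gene is named in the table, was listed at 0 in all 16 samples. The ratio of *H2-Eb1* to *H2-Ab1* was 0.60 to 0.68 in the WT-veh samples and 0.57 to 0.63 in WT-DES, which overlap.

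*Cd74*, the chaperone of all class II molecules, lies on chromosome 18 and had the highest level of the 9 genes in each group. It was at 269, 172, 153 and 189 FPKM in WT-veh and at 456, 791, 820 and 543 in WT-DES. In αERKO-veh it was at 135, 138, 116 and 160 FPKM, and in αERKO-DES at 196, 129, 172 and 118. No WT-DES sample fell within the range of another group. The ratio of means in WT-DES relative to WT-veh was 3.33 (log2 change 1.72, standard error 0.22, limma adjusted p = 4.90e-06). By mean FPKM *Cd74* ranked 418th among all genes of the table in WT-veh and 24th in WT-DES, and *H2-Aa* ranked 1309th and 45th. The ratio of *Cd74* to *H2-Aa* was 2.15 to 2.55 in WT-veh, 2.08 to 2.24 in αERKO after vehicle and 2.21 to 2.48 in αERKO after DES. In WT-DES it was 1.43 to 1.71, below every other sample. *Cd74* accordingly made up 43.9% to 46.8% of the summed FPKM of the 9 genes in WT-veh and 34.2% to 38.5% in WT-DES.

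**Figure D1:**
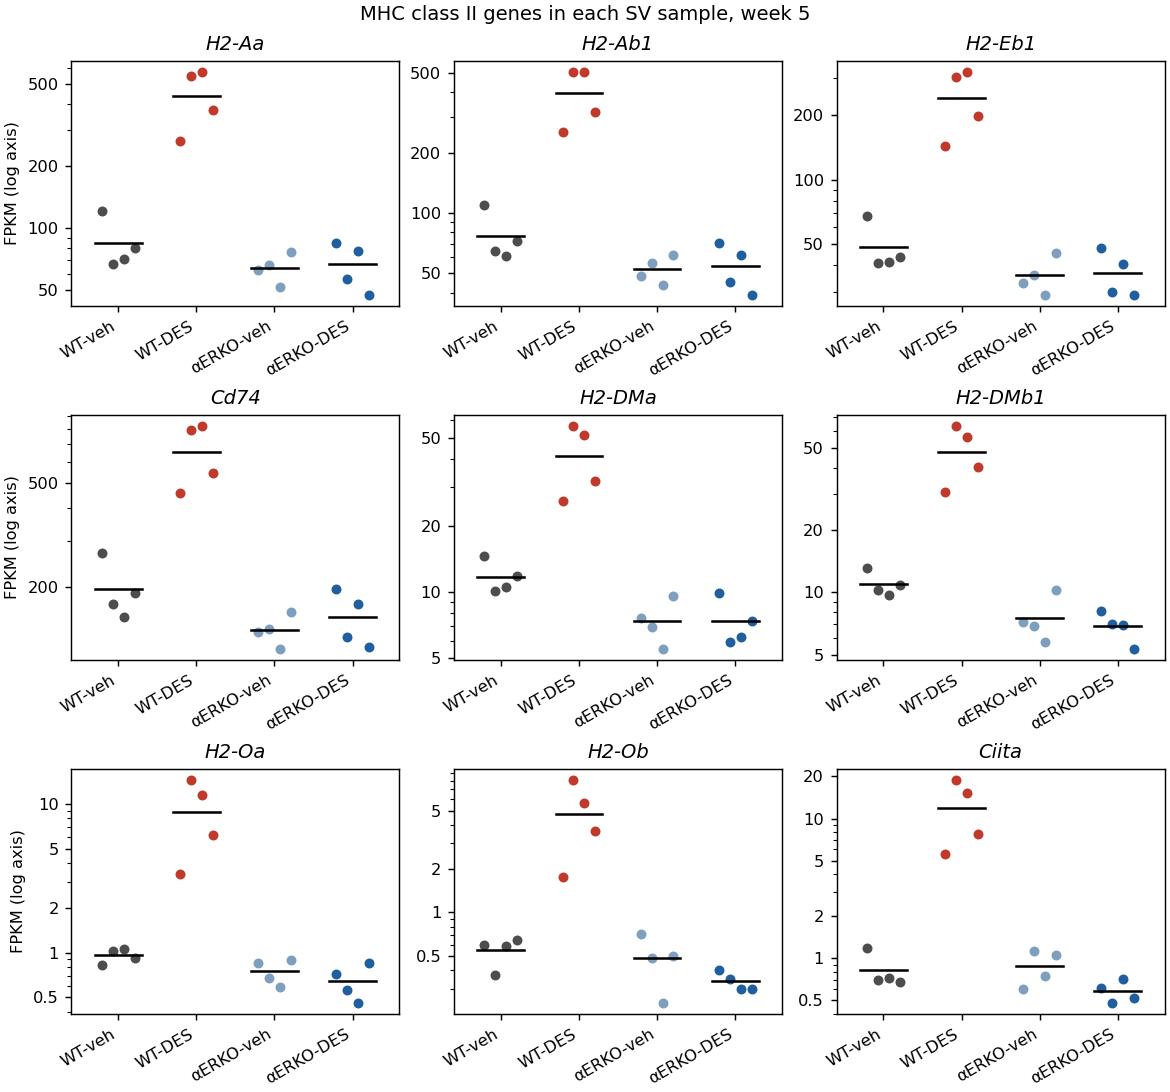
FPKM on a log axis of each of the 9 genes in each sample, with samples 1 to 4 of a group from left to right and a line at the group mean. In each panel the 4 WT-DES points lie above all points of the other 3 groups, which overlap in most panels.

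The DM chains, which load peptide, stood well below the class II chains. *H2-DMa* was at 14.5, 10.1, 10.6 and 11.8 FPKM in WT-veh and at 25.7, 56.4, 51.7 and 31.7 in WT-DES. It was at 7.58, 6.90, 5.53 and 9.54 FPKM in αERKO-veh and at 9.94, 5.93, 6.25 and 7.39 in αERKO-DES. Each αERKO sample was thus below each WT-veh sample, by a narrow margin in αERKO-DES, and each WT-DES sample was above them all. The ratio of means in WT-DES relative to WT-veh was 3.53 (log2 change 1.68, standard error 0.23, limma adjusted p = 1.08e-05).

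*H2-DMb1* was at 13.1, 10.2, 9.74 and 10.9 FPKM in WT-veh and at 30.5, 63.4, 56.5 and 40.2 in WT-DES. In αERKO its levels were 7.21, 6.92, 5.77 and 10.3 FPKM after vehicle and 8.10, 7.02, 6.97 and 5.35 after DES. The αERKO-DES samples were below all WT-veh samples, and αERKO-veh overlapped WT-veh through its sample 4. The ratio of means in WT-DES relative to WT-veh was 4.34 (log2 change 1.97, standard error 0.20, limma adjusted p = 6.36e-07). *H2-DMa* over *H2-DMb1* was 0.98 to 1.11 in the WT-veh samples and 0.79 to 0.915 in WT-DES, without overlap. It was 0.924 to 1.051 in αERKO-veh, just above WT-DES, and 0.84 to 1.38 in αERKO-DES, which overlaps both WT groups. *H2-DMb1* has a close paralogue beside it, *H2-DMb2*, and the stated methods do not say how fragments shared by both were assigned, so the split between them is uncertain. *H2-DMb2* was at 1.29 to 2.30 FPKM in WT-veh and 6.24 to 17.7 in WT-DES and rose too (log2 change 2.18, standard error 0.26, limma adjusted p = 2.31e-06). The annotation of *H2-DMa* overlaps that of *Brd2* on the other strand, and whether strand was used in counting is not given in the sources used here.

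The DO chains, the modulators of DM, were near 1 FPKM or lower outside WT-DES. *H2-Oa* was at 0.83, 1.02, 1.06 and 0.92 FPKM in WT-veh and at 3.39, 14.4, 11.5 and 6.14 in WT-DES. In αERKO-veh it was at 0.85, 0.67, 0.59 and 0.89 FPKM, and in αERKO-DES at 0.72, 0.56, 0.46 and 0.85. WT-DES stood clear of the other groups, which overlapped. The mean of WT-DES was 9.25 times that of WT-veh, and the log2 change was 2.17 (standard error 0.28, limma adjusted p = 5.29e-06). *H2-Ob* was at 0.60, 0.37, 0.59 and 0.65 FPKM in WT-veh and at 1.74, 8.06, 5.62 and 3.64 in WT-DES. It was at 0.71, 0.49, 0.24 and 0.50 FPKM in αERKO-veh and at 0.40, 0.35, 0.30 and 0.30 in αERKO-DES. The same separation was seen, with a ratio of means of 8.62 (log2 change 1.76, standard error 0.26, limma adjusted p = 2.03e-05). *H2-Oa* and *H2-Ob* passed the minimum of 1 FPKM only through WT-DES, so these values are a description. The DO chains also varied most among the WT-DES samples: the highest was 4.24 times the lowest for *H2-Oa* and 4.63 times for *H2-Ob*, against 1.80 times for *Cd74*.

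Because DO restrains DM, the balance of both was compared. The summed FPKM of *H2-DMa* and *H2-DMb1* was 12.3 to 19.3 times that of *H2-Oa* and *H2-Ob* in WT-veh and 5.34 to 11.0 times in WT-DES, without overlap. In αERKO it was 9.48 to 14.3 times after vehicle and 11.1 to 17.4 times after DES. On the log2(FPKM + 1) scale, where each chain was averaged, the level of DM relative to DO was 2.82 ± 0.21 (SD, n = 4) in WT-veh and 2.67 ± 0.29 (SD, n = 4) in WT-DES, and the groups overlapped. The lower ratio of DM to DO in WT-DES was therefore seen on the FPKM scale and not on the log2(FPKM + 1) scale, where 1 is added to DO levels that were near or below 1 in WT-veh. The DO chains passed the minimum of 1 FPKM only through WT-DES, so the ratios on either scale are a description.

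*Ciita*, whose product drives the classical chains, *Cd74* and DM, had the largest ratio of means. It was at 1.19, 0.70, 0.72 and 0.67 FPKM in WT-veh and at 5.55, 18.8, 15.2 and 7.79 in WT-DES. In αERKO-veh it was at 0.60, 1.13, 0.75 and 1.06 FPKM, and in αERKO-DES at 0.61, 0.48, 0.71 and 0.52. WT-DES again stood clear, with means 14.4-fold apart (log2 change 2.69, standard error 0.26, limma adjusted p = 3.52e-07). *H2-Aa* was at 96.2 to 120 times the FPKM of *Ciita* in WT-veh, 58.9 to 104 times in αERKO-veh and 91.6 to 139 times in αERKO-DES. In WT-DES this ratio was 29.4 to 48.1, below every other sample. *Ciita* was near or below 1 FPKM outside WT-DES and passed the minimum only through WT-DES, so its ratios are a description.

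After neonatal DES in mice with ERα, the 9 genes were thus at higher levels at week 5. The 6 genes that passed 1 FPKM as the mean of each group, *H2-Aa*, *H2-Ab1*, *H2-Eb1*, *Cd74*, *H2-DMa* and *H2-DMb1*, were all called higher in WT-DES. *H2-Oa*, *H2-Ob* and *Ciita* passed the minimum of 1 FPKM only through WT-DES, so they had to differ to be tested, and their values are a description. With no minimum on FPKM all 9 genes were called, where 45.6% of the genes tested were called in either direction. Calls were frequent in this comparison: 52.7% of the tested genes were called, 28.9% were called higher, and for 32.7% every WT-DES sample was above every WT-veh sample. Among those that passed 1 FPKM in WT-veh, 22.7% were called higher. When samples were rescaled to equal totals that leave out the 20 most abundant genes, 6953 of 8784 calls were higher, against 4613 of 8428, and the 9 genes were called higher in both. The median log2 change was −0.01 over all tested genes, and the 9 genes ranged from 1.68 to 2.69. Together they made up 0.0575% to 0.0989% of the FPKM sum in WT-veh and 0.276% to 0.616% in WT-DES.

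The WT-DES samples kept a common order. Sample 1 was the lowest of the 4 for each of the 9 genes, and the highest was sample 2 for 6 genes and sample 3 for 3 genes. Sample 1 is also the one with WT-veh-like smooth muscle markers. Without it the 6 genes above the minimum in every group were still called, with log2 changes of 1.87 (*H2-DMa*) to 2.56 (*H2-Aa*). *H2-Oa*, *H2-Ob* and *Ciita* (2.97) also met the criteria, which adds no support, since they passed the minimum only through WT-DES. In WT-veh sample 1 was the highest for 7 of the 9 genes, in αERKO-veh sample 4 was the highest for 7 and sample 3 the lowest for 8, and in αERKO-DES sample 1 was the highest for 7. These orders had exceptions outside WT-DES: *H2-Oa* was lowest in WT-veh sample 1 and highest in αERKO-DES sample 4, and *Ciita* was lowest in αERKO-veh sample 1. Over the 36 pairs of genes, Pearson's r of log2(FPKM + 1) across the 16 samples was 0.941 to 0.998 (median 0.976), a description in which the points share libraries and the WT-DES samples stand apart from the rest.

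Without ERα no change was called after the same treatment. Between αERKO-DES and αERKO-veh none of the 9 genes was called, where 1.49% of the tested genes were, and none reached an unadjusted p of 0.05, where 25.3% of the tested genes did. The groups overlapped for all 9. The log2 changes ran from −0.25 for *Ciita* (95% interval −0.81 to 0.31, limma adjusted p = 0.585) to 0.14 for *Cd74* (95% interval −0.33 to 0.60, limma adjusted p = 0.731). For *H2-Aa* the change was 0.03 (95% interval −0.51 to 0.57, limma adjusted p = 0.962). Over the 9 genes the lowest lower bound was −0.81 and the highest upper bound 0.60. Each interval ended below 1.68, the smallest change in WT. With sample weights *H2-DMb1*, *H2-DMa* and *Ciita* were lower at an adjusted p under 0.05 but did not meet the other criteria of a call.

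The difference between the genotypes was tested as the interaction, the DES effect on the log2 scale in WT with that in αERKO subtracted. It was called for the 6 genes above the minimum in every group, where 56.4% of the tested genes were called and 29.6% were called in this direction. *H2-Oa*, *H2-Ob* and *Ciita*, which passed the minimum only through WT-DES, also met the criteria, and their values here and between the DES groups are a description. It was 2.31 for *H2-Aa* (standard error 0.36, limma adjusted p = 4.50e-05), 2.30 for *H2-Ab1* and 2.22 for *H2-Eb1*. It was smallest for *Cd74* at 1.58 (standard error 0.31, limma adjusted p = 0.000338). The DM chains had 1.68 (*H2-DMa*) and 2.08 (*H2-DMb1*). The values of the other 3 were 2.26 (*H2-Oa*), 1.91 (*H2-Ob*) and 2.94 (*Ciita*). In αERKO-DES relative to WT-DES, which shares the DES samples with these comparisons, all 9 genes were called lower, where 53.4% of the tested genes were called and 29.6% were called lower. These log2 changes ran from −1.97 for *H2-Ob* to −2.89 for *Ciita*.

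**Figure D2:**
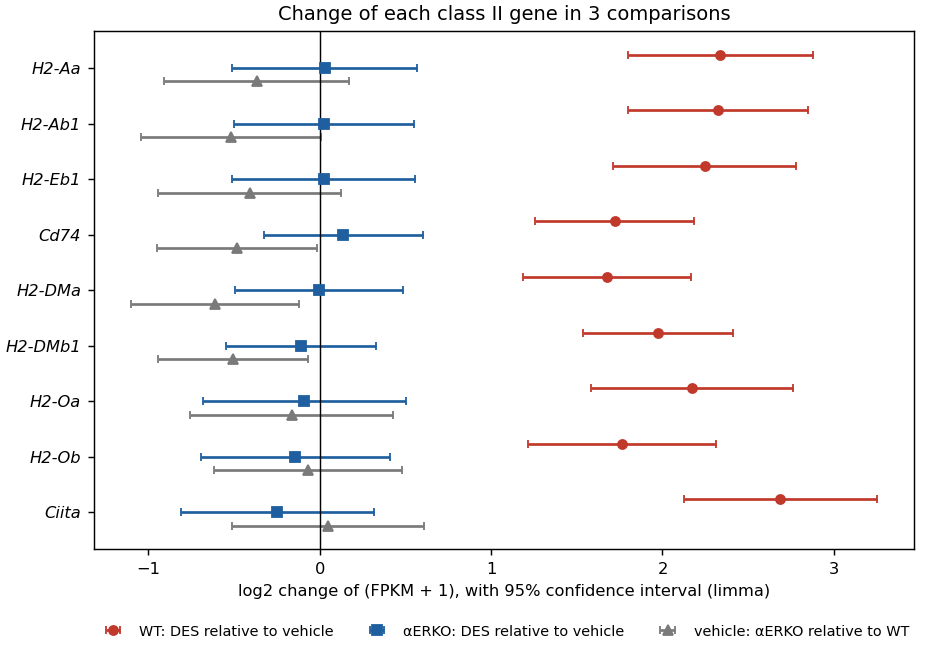
The limma log2 change of each of the 9 genes with its 95% confidence interval in 3 comparisons: DES relative to vehicle in WT (circles), DES relative to vehicle in αERKO (squares) and αERKO relative to WT after vehicle (triangles). The WT changes lie between 1.68 and 2.69 with intervals clear of 0, and the αERKO changes lie between −0.25 and 0.14 with intervals that span 0, while the triangles of *H2-DMa*, *H2-DMb1* and *Cd74*, none of them called, have intervals below 0.

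Loss of ERα without DES gave smaller differences. In αERKO-veh relative to WT-veh none of the 9 genes was called, where 7.12% of the tested genes were. An unadjusted p of 0.05 or less was found for 3 genes, against 38.9% of the tested genes: *H2-DMa* (log2 change −0.61, limma adjusted p = 0.0621), *H2-DMb1* (−0.51, limma adjusted p = 0.0812) and *Cd74* (−0.48, limma adjusted p = 0.115). For *H2-DMa* alone every αERKO-veh sample was below every WT-veh sample, which held for 17.1% of the tested genes. It was called when only these groups were fitted (limma adjusted p = 0.0310). The other 6 genes ran from −0.52 for *H2-Ab1* to 0.05 for *Ciita*. In αERKO-DES relative to WT-veh, where genotype and treatment both differ, none was called either, against 3.18% of the tested genes. Of the 9 genes, 2 reached an unadjusted p of 0.05, against 26.4% of the tested genes: *H2-DMa* at −0.62 (limma adjusted p = 0.105) and *H2-DMb1* at −0.61 (limma adjusted p = 0.0758). They were also the 2 genes with every αERKO-DES sample below every WT-veh sample, as for 11.1% of the tested genes, and both were called when only these groups were fitted. The comparisons with WT-veh share its 4 samples. Of the 9 macrophage markers, *C1qa* (−0.67) and *C1qb* (−0.67), which encode chains of complement C1q, were called lower in αERKO-veh than in WT-veh. Of the 15988 tested genes 420 were called lower there, and the other 7 markers were not called (−0.42 to 0.35). The summed FPKM of the list was 104 to 134 against 127 to 204, which overlap, none of the 9 was called between αERKO-DES and WT-veh, and their part in the result was not tested.

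Leukocyte markers rose with the class II genes in WT-DES. *Ptprc*, the gene of the leukocyte antigen CD45, was at 3.80, 2.53, 2.16 and 1.77 FPKM in WT-veh and at 22.1, 43.5, 41.7 and 21.5 in WT-DES, a 12.6-fold ratio of means (log2 change 3.18, standard error 0.22, limma adjusted p = 1.27e-08). Its range was 2.34 to 3.36 FPKM after vehicle and 1.82 to 2.38 after DES in αERKO. Of the 6 pan-leukocyte markers, all above 1 FPKM in WT-veh, 5 rose, where 22.7% of such genes were called higher, and *Cd52* fell from 2837 to 3022 FPKM in WT-veh to 282 to 568 in WT-DES. *Cd52* is known from epithelium of the male genital tract as well as from leukocytes.

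Markers of 3 types of professional antigen-presenting cell were examined. Of the 9 macrophage markers, all above 1 FPKM in WT-veh, 8 rose (median log2 change 2.15), against the 22.7% of such genes, and *Mertk* did not pass (log2 change −0.26, limma adjusted p = 0.115). *Emr1*, the gene of the macrophage antigen F4/80, was at 3.15 to 5.05 FPKM in WT-veh and 20.2 to 29.3 in WT-DES. Of the 8 dendritic cell markers the 4 above 1 FPKM in WT-veh rose, and the other 4 passed the minimum only through WT-DES. *Itgax*, the gene of the dendritic cell integrin CD11c, was at 1.09 to 1.80 FPKM in WT-veh and 6.09 to 14.95 in WT-DES. Of the 7 B cell markers tested, 6 were called higher, all of which passed the minimum only through WT-DES. The one above the minimum in WT-veh, the complement receptor gene *Cr2*, was not called (log2 change −0.23, limma adjusted p = 0.278). *Pax5*, the B lineage factor, was at or below 0.05 FPKM in WT-veh and both αERKO groups and at 0.08 to 1.56 in WT-DES. *Pax5* was thus near 0 outside WT-DES.

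The summed levels show how these lists moved beside the class II genes. The macrophage sum was 127 to 204 FPKM in WT-veh and 471 to 623 in WT-DES, the dendritic cell sum 10.4 to 13.99 and 26.7 to 73.8, and the B cell sum 2.24 to 2.57 and 5.97 to 39.7. Of the 6 T cell markers the 5 above 1 FPKM in WT-veh rose, against 22.7% of such genes, and the other passed the minimum only through WT-DES. The 6 summed to 8.23 to 14.8 FPKM in WT-veh and 23.7 to 107 in WT-DES. In WT-DES the dendritic, T and B cell sums were lowest in sample 1, as the 9 class II genes were. Between αERKO-DES and αERKO-veh no marker of these 5 lists was called, where 1.49% of the tested genes were. Of 6 epithelial markers 4 were called lower in WT-DES, where 23.9% of the tested genes were, and *Cldn4* (−0.41) and *Cdh1* (0.25) were not called. *Epcam*, an epithelial adhesion molecule, was at 157 to 164 FPKM in WT-veh and 84.5 to 125.9 in WT-DES. Of 5 adipose markers 4 were above 1 FPKM in WT-veh, of which 3 were called higher with DES in WT, against 22.7% of such genes. *Lep* passed the minimum only through WT-DES. The list had a summed FPKM of 114 to 610 in WT-veh and 483 to 1148 in WT-DES, which overlap. Unlike the class II genes, 3 of these 5 were called lower in αERKO after DES (median −2.84), against 1.41% of the tested genes. There the sum was 15.4 to 40.7 FPKM against 62.5 to 642, and the 4 markers other than *Lep* were called in the interaction, where 56.4% of the tested genes were, 29.6% in this direction. Skeletal muscle markers were called lower for 2 of 5 with DES in WT, where 23.9% of the tested genes were, and for 3 of 5 with DES in αERKO, where 1.41% were. The part of these markers in the change of the class II genes was not tested.

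**Figure D3:**
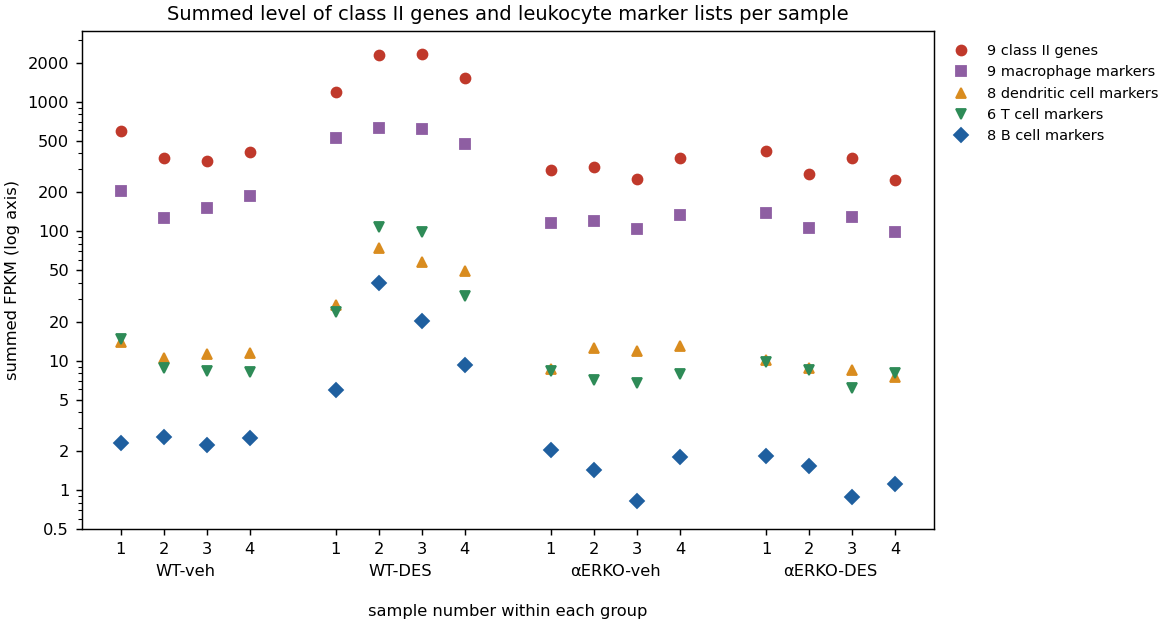
Summed FPKM on a log axis of the 9 class II genes and of 4 leukocyte marker lists in each of the 16 samples, numbered within groups. All 5 sums are higher in the WT-DES samples than in any other sample, and the class II, dendritic cell, T cell and B cell sums are lowest there in sample 1.

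Class II levels were also set against *Ptprc* in the same sample. The log2 ratio of *H2-Aa* to *Ptprc* averaged 5.07 in WT-veh and 3.79 in WT-DES, that of *Cd74* 6.28 and 4.38, and that of *H2-DMa* 2.24 and 0.37. For 6 of the 9 genes every WT-DES sample had a lower ratio than every WT-veh sample, by 1.28 (*H2-Aa*) to 1.90 (*Cd74*) in the means. This says little of these genes, since 92% of the tested genes above 0 in the 8 samples had such a lower ratio. The exceptions were *H2-Oa*, *H2-Ob* and *Ciita*, which passed the minimum of 1 FPKM only through WT-DES, so their ratios are a description. Their groups overlapped: *Ciita* averaged −1.63 in WT-veh and −1.53 in WT-DES, a difference of 0.10. These differences depend on the reference. Against the mean of the 5 pan-leukocyte markers other than *Cd52* the difference of *H2-Aa* was −0.53. Against the mean of the 9 macrophage markers the difference was 0.36 for *H2-Aa* and 1.74 for *Ciita*, while that of *Cd74* stayed negative at −0.26.

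**Figure D4:**
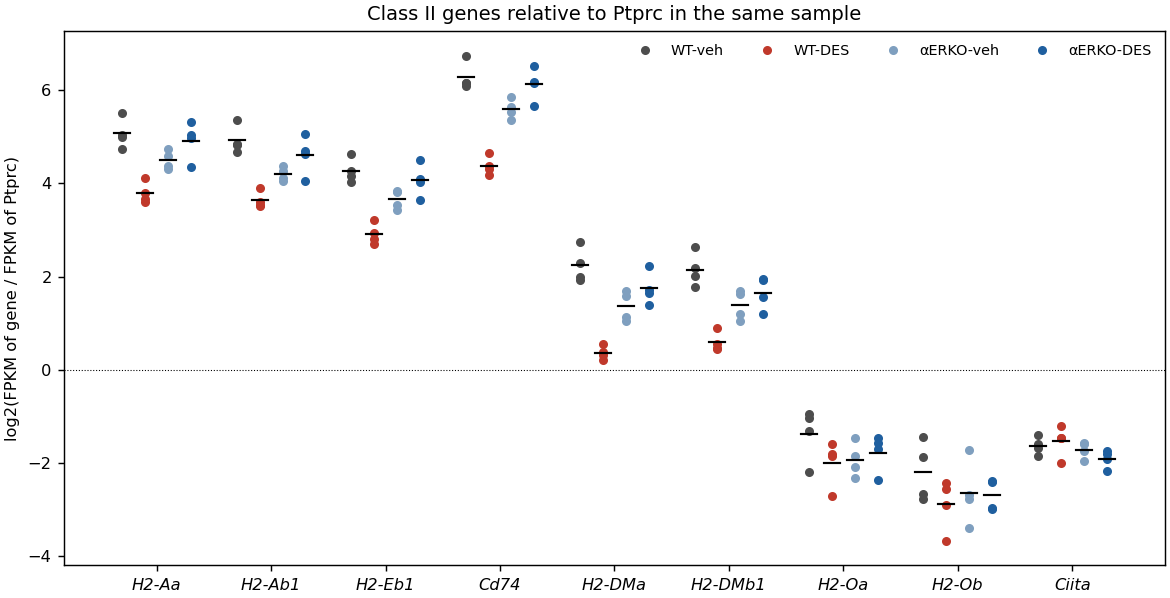
The log2 ratio of the FPKM of each class II gene to that of *Ptprc* in the same sample, with 4 points and a line at the mean for each group. WT-DES lies below WT-veh without overlap for 6 genes. The WT groups overlap for *H2-Oa*, *H2-Ob* and *Ciita*, which passed the minimum of 1 FPKM only through WT-DES.

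Genes that act on *Ciita* and on the class II promoters differed in their response. Interferon γ signals through JAK kinases to IRF1 and *Ciita*, and of the 7 genes of this route above 1 FPKM in WT-veh 5 rose in WT-DES, against 22.7% of such genes. *Ifng* itself was at 0.04 to 0.09 FPKM in WT-veh and at 0.39, 4.18, 3.0 and 0.86 in WT-DES, so that it passed the minimum only through WT-DES. It was at 0 to 0.05 in the αERKO samples. *Irf1*, an interferon-inducible transcription factor, was at 21.8 to 25.0 FPKM in WT-veh and 54.7 to 119 in WT-DES (log2 change 1.75, standard error 0.17, limma adjusted p = 3.71e-07). *Jak1* (0.21) and *Ifngr2* (0.05) were not called. For *Ifng* and *Irf1*, as for *Ciita* and the DO chains, WT-DES sample 2 was the highest.

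The factors that hold CIITA on DNA did not rise as a group. Of the 7 genes of RFX, NF-Y and CREB, 1 rose and 1 fell, where 28.9% of the tested genes were called higher and 23.9% lower, with a median log2 change of −0.08. *Rfx5*, the large RFX subunit, was at 6.83 to 8.25 FPKM in WT-veh and 10.3 to 13.97 in WT-DES (log2 change 0.60, standard error 0.09, limma adjusted p = 3.21e-05). *Rfxap*, another subunit, was at 19.6 to 21.9 FPKM in WT-veh and 11.4 to 12.7 in WT-DES (log2 change −0.74, standard error 0.08, limma adjusted p = 5.86e-07). Of 8 genes that act on antigen in the endosome 3 rose, *Ctss* (2.50), *Lgmn* (1.79) and *Ctsh* (1.501), and 2 fell, *Cst3* (−1.09) and *Ifi30* (−0.64). These shares are near those over all tested genes, as just given. *Ctss*, the protease that cuts the invariant chain to CLIP, was at 23.6 to 35.01 FPKM in WT-veh and 123 to 200 in WT-DES. *Cst3*, an inhibitor of such proteases, was at 1139 to 1306 FPKM in WT-veh and 541 to 646 in WT-DES. *Ifi30*, the lysosomal thiol reductase GILT, was at 136 to 174 FPKM in WT-veh and 74.1 to 113 in WT-DES.

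Molecules that act with class II at the contact with T cells were examined next. Of the 8 costimulatory and class II receptor genes, the 3 above 1 FPKM in WT-veh (*Cd40*, *Cd86* and *Icosl*) rose, against 22.7% of such genes, and the other 5 passed the minimum only through WT-DES. *Cd40*, which drives activation of antigen-presenting cells, was at 0.95 to 1.47 FPKM in WT-veh and 7.92 to 20.1 in WT-DES. *Cd86*, a ligand of CD28, was at 1.21 to 2.05 FPKM in WT-veh and 4.44 to 10.2 in WT-DES. *Cd4* and *Lag3*, the receptors that bind class II itself, are among those 5 and were at 0.37 to 0.65 and 0.88 to 1.11 FPKM in WT-veh and at 3.26 to 17.4 and 5.63 to 19.5 in WT-DES. Of the genes that set the turnover of class II at the surface, *Cd83* (1.72) was called higher and the ubiquitin ligase gene *March8* (−0.10) was not. *March1* (1.73), another ligase gene whose action the product of *Cd83* opposes, passed the minimum only through WT-DES. None of the genes of these 5 lists was called between αERKO-DES and αERKO-veh, where 1.49% of the tested genes were.

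In the class II region itself, from the start of *H2-Oa* to the end of *H2-Eb2* (chr17:34092340-34341412), the table held 14 genes. Besides the 7 described, 6 were tested and 5 of them were called higher in WT-DES, against 28.9% of the tested genes. These were *H2-DMb2*, the proteasome genes *Psmb9* (1.75) and *Psmb8* (1.71), and the peptide transporter genes *Tap1* (2.08) and *Tap2* (0.89), which serve class I presentation. *Brd2*, a chromatin reader, was not called (−0.23). *H2-Eb2*, which resembles *H2-Eb1*, was at 0.01 to 0.06 FPKM in WT-veh and at 0.32, 1.49, 1.07 and 0.34 in WT-DES and was below the minimum.

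The genes with the most similar pattern over the 16 samples were sought for *Cd74*, *H2-Ob* and *Ciita*, of which the last 2 passed the minimum only through WT-DES. For *Cd74* the 5 highest values of Pearson's r of log2(FPKM + 1) among the other tested genes were those of *Aif1* (0.988), *C1qc* (0.987), *Unc93b1* (0.987), *Cyth4* (0.985) and *Clec12a* (0.985). For *H2-Ob* they were those of *Spo11* (0.992), *Btla* (0.990), *Cd79b* (0.989), *Gm4841* (0.988) and *Siglecg* (0.988), and for *Ciita* those of *Gbp6* (0.997), *Wdfy4* (0.996), *Gm4951* (0.995), *Gbp10* (0.995) and *Slfn8* (0.995). The 3 sets had no gene in common, which says little, since only 5 genes were taken for each. *Wdfy4*, *Gm4951*, *Slfn8* and the 5 genes of *H2-Ob* had means below 1 FPKM outside WT-DES. They too passed the minimum only through WT-DES. Of the genes named, *C1qc* is known as a macrophage gene and *Cd79b* encodes a part of the B cell receptor. *Gbp6* and *Gbp10* encode interferon-inducible GTPases. In each case the 4 WT-DES samples stood apart from the rest, so these values describe likeness over 2 levels of expression.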

How the data were processed

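RNA from the SV was sequenced by the authors in paired-end mode on an Illumina HiSeq, filtered to an average quality above 20, aligned to mm10 with TopHat 2.0.4 and assembled with Cufflinks 2.0.2. The authors deposited FPKM per gene with 2 decimals for 16 samples; the annotation of the table is not given in the sources used here, and depth is unknown. Groups were taken from the labels. The members and lists were chosen with earlier results of these data known.

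The deposited values were turned into log2(FPKM + 1) and fitted with limma 3.58.1 (R 4.3.3) as 4 group means over the 16 samples. Moderation used a variance trend, and p-values were adjusted by Benjamini-Hochberg over the 15988 genes that passed 1 FPKM as the mean of a group. Named were the 9 genes, list genes whose role bears on them, *Esr1*, and the 5 genes most like *Cd74*, *H2-Ob* and *Ciita*. Fits were tested on simulated data. Alternatives were a pseudocount of 0.1, no minimum or a minimum of 5 FPKM, fits of the compared groups only, no trend, sample weights, a replicate block, 3 other scalings (median ratio, quantile, totals without the 20 highest genes), a correction for transcript length (lowess span 0.3, 94.1% of tested genes), an adjusted p of 0.01, and each sample left out in turn. Other references for the ratio to *Ptprc* and *H2-DMb2* in the DM sum were partly added after seeing the data. Coordinates are from GENCODE M21 and promoter windows from RefSeq. Tables and plots used numpy 2.4.6, pandas 2.3.3 and matplotlib 3.10.9 under Python 3.11.15. Values of some list genes are not reported here.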

Additional observations from a re-analysis of the deposited data

Results flagged for a closer look

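*H2-Eb1* in WT-veh sample 1 was at 68.0 FPKM, far from the other 3 samples of its group, and so was *Ciita* in the same sample at 1.19 FPKM. In both cases the gap to the next sample divided by the range exceeded the 95% critical value of Dixon's ratio for 4 samples. Of the 36 sets of 4 values these 2 were past it, and chance passes about 1 in 20. Leaving out this sample ended no call of the 9 genes in WT-DES relative to WT-veh. Of these 9 genes, *H2-Oa*, *H2-Ob* and *Ciita* passed the minimum only through WT-DES.

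The change with DES differed between WT and αERKO by the test of the difference itself for the 6 genes above 1 FPKM in every group, where 56.4% of the tested genes were called. *H2-Oa*, *H2-Ob* and *Ciita* passed the minimum only through WT-DES, and their values are a description. The difference, WT over αERKO on the log2 scale, was 2.31 for *H2-Aa*, 2.30 for *H2-Ab1*, 2.22 for *H2-Eb1*, 1.58 for *Cd74*, 1.68 for *H2-DMa*, 2.08 for *H2-DMb1*, 2.26 for *H2-Oa*, 1.91 for *H2-Ob* and 2.94 for *Ciita*, with 4 samples a group.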

How the results depend on the processing

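The 6 genes above 1 FPKM in every group were called higher with DES in WT, lower in αERKO-DES against WT-DES, and in the interaction under each alternative that was run. The interaction was not run with fits of the compared groups only. *H2-Oa*, *H2-Ob* and *Ciita*, which met the minimum only through WT-DES, were called wherever tested (*H2-Ob* was not at a minimum of 5 FPKM), which adds no support. The log2 changes of the 9 ranged from 1.39 to 3.57, from −3.98 to −1.49 and from 1.37 to 4.08. Rescaling without the 20 highest genes shifted the median of all genes to 0.38 for WT-DES and 0.11 for αERKO-veh against WT-veh, −0.34 for αERKO-DES against WT-DES and 0.51 for the interaction. In αERKO-veh relative to WT-veh the count went from 0 to 1 gene when only these groups were fitted, and from 0 to 1 over the fits that left out a sample: *H2-DMa* without WT-DES sample 1 or 2, and *H2-DMb1* without αERKO-veh sample 4. In αERKO-DES relative to WT-veh it was 2 with only these groups and 2 with sample weights (*H2-DMa* and *H2-DMb1*), and 0 to 1 with a sample left out (*H2-DMb1* without WT-DES sample 1, *H2-DMa* without αERKO-DES sample 1).

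Changes near 0 turned direction without a call. Between αERKO-DES and αERKO-veh, sample weights gave −0.26 for *H2-Aa*, −0.26 for *H2-Ab1*, −0.38 for *H2-Eb1* and −0.14 for *Cd74*. The weights, whose estimation did not reach its convergence tolerance, also took *H2-DMb1* to −0.45 (limma adjusted p = 0.0196), *H2-DMa* to −0.41 (0.0444) and *Ciita* to −0.40 (0.0465), past an adjusted p of 0.05. None was a call, since the unweighted means of the DM chains were under 1.5-fold apart and *Ciita* was under 1 FPKM in both groups. Over all alternatives the adjusted p of these 3 ran from 0.0196 to 1. Quantile normalization gave −0.12, −0.11, −0.075 and −0.057 for the same genes, 0.073 for *H2-DMa*, 0.11 for *H2-Oa* and 0.023 for *H2-Ob*. Rescaling gave −0.10 for *H2-Aa*, −0.11 for *H2-Ab1* and −0.10 for *H2-Eb1*, and the length correction −0.084 for *H2-Ab1* and −0.061 for *H2-Eb1*. With a sample left out the changes ran from −0.10 to 0.18 for *H2-Aa*, −0.12 to 0.16 for *H2-Ab1*, −0.11 to 0.14 for *H2-Eb1*, −0.14 to 0.11 for *H2-DMa* and −0.21 to 0.035 for *H2-DMb1*. In αERKO-veh relative to WT-veh, quantile normalization gave −0.011 for *Ciita*, and the length correction 0.10 for *H2-Oa*, 0.024 for *H2-Ob* and −0.15 for *Ciita*. With a sample left out *H2-Ob* ran from −0.14 to 0.014 and *Ciita* from −0.012 to 0.14. The causes were not tested.

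The ratio to *Ptprc*, as WT-DES minus WT-veh, became positive against the 6 pan-leukocyte markers for *H2-Aa* (0.41), *H2-Ab1* (0.40), *H2-Eb1* (0.33), *H2-DMb1* (0.13), *H2-Oa* (1.07) and *H2-Ob* (0.99). It was positive against the macrophage markers for *H2-Aa* (0.36), *H2-Ab1* (0.35), *H2-Eb1* (0.28), *H2-DMb1* (0.077), *H2-Oa* (1.02) and *H2-Ob* (0.94), and against the 5 pan-leukocyte markers without *Cd52* for *H2-Oa* (0.13) and *H2-Ob* (0.052), while *H2-Aa* (−0.53), *H2-Ab1* (−0.54) and *H2-Eb1* (−0.61) stayed negative against these 5. The DM to DO difference was −0.14 on the log2(FPKM + 1) scale, −1.05 from FPKM sums and −0.98 with *H2-DMb2* added. *H2-Oa* and *H2-Ob* passed the minimum only through WT-DES, so their ratios and the DM to DO difference are a description.

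No pairing by replicate number was found: of 24 pairs with the same number 3 had a correlation of deviations above 0.1 (range −0.215 to 0.277). Pairs with different numbers were not compared, so a pairing is not excluded. A replicate block left the count at 9 genes for DES in WT and changed no call of the 9 genes, with 8409 against 8428 calls over all genes. Of the 9 genes, *H2-Oa*, *H2-Ob* and *Ciita* passed the minimum only through WT-DES. The count of all genes called moved by over 1.5 times from 239 between αERKO-DES and αERKO-veh (1 to 1118), from 1139 between αERKO-veh and WT-veh (402 to 1690) and from 508 between αERKO-DES and WT-veh (156 to 1001). FPKM gives no depth, so the spread of 4 samples sets the precision, and DO and *Ciita* lie near the lower end of what was measured outside WT-DES.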
